A study of Mus musculus with 12 samples.

Results

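Mitochondrially encoded transcripts were measured in the antral region of the stomach of CEA424-SV40 TAg transgenic mice and of non-transgenic controls. In these mice a short promoter piece taken from human CEA drives the SV40 T antigens. They were kept on a C57Bl/6 background, were hemizygous for the transgene and developed antral tumours. Transgenic antra were taken at day 30, day 60 and day 90 and held tumour together with normal tissue, so that RNA of both was hybridised together. Each group had 3 mice, and RNA of each mouse was read on 1 Illumina Sentrix Mouse-6 array (12 arrays in all). The labels give the controls an age of 2 to 6 months, while the study calls them littermates and in 1 figure legend gives them as day 90, so their age is uncertain. The transcripts were chosen by probe name: 13 of the 46116 probes carry names that begin with mtDNA_, and 10 of them were kept. The probe for ATP6 was left out because 1 control array read near background, and those for ND3 and ND6 because they were near background on every array, so the choice was made on measured values. The 10 members are mtDNA_ND1-S, mtDNA_ND2-S, mtDNA_ND4-S, mtDNA_ND4L-S, mtDNA_ND5-S, mtDNA_CytB-S, mtDNA_COXI-S, mtDNA_COXII-S, mtDNA_COXIII-S and mtDNA_ATP8-S, called by their gene below.

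Mitochondria carry a small circular genome of their own that encodes ribosomal RNAs, transfer RNAs and a few subunits of the respiratory chain, while all other mitochondrial proteins are encoded in the nucleus. Both strands are transcribed as long precursors that are cut into single messengers, and the final amount of each messenger is also set by its stability. ND1, ND2, ND4, ND4L and ND5 belong to complex I, the NADH dehydrogenase. Cytochrome b (CytB) is the mitochondrially encoded subunit of complex III, COXI, COXII and COXIII form the core of complex IV, the cytochrome c oxidase, and ATP8 belongs to complex V, the ATP synthase. ATP8 and ATP6 lie on 1 overlapping messenger, as do ND4L and ND4. In the stomach the acid-secreting parietal cells are especially rich in mitochondria.

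The non-normalized intensities of the 10 probes lay between 2129.5 and 36298.2, while the medians of the arrays lay between 92.1 and 127.1. No member was the brightest probe of its array, and the files used here give no flag for saturation. Together the 10 probes held 1.48%, 1.43% and 1.62% of the summed non-normalized intensity on the day 60 arrays. They held 1.07%, 1.30% and 1.09% on the day 90 arrays, 1.33%, 1.17% and 1.64% on the day 30 arrays and 1.06%, 1.31% and 1.23% on the control arrays. The share was thus above every control and every day 90 array on all 3 day 60 arrays, while day 90 and control overlapped, as did day 30 and each other group. Control mouse 1 gave the lowest share of all.

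**Figure D1:**
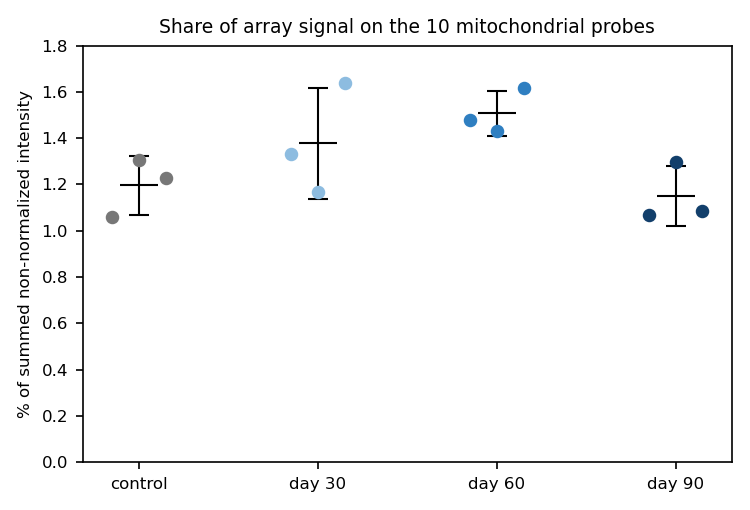
Share of the summed non-normalized intensity of each array (in %) that fell on the 10 mitochondrial probes, by group; points are single mice, horizontal lines the mean and bars the SD (n = 3). The day 60 arrays lie between 1.43% and 1.62%, above the day 90 arrays (1.07% to 1.30%) and the control arrays (1.06% to 1.31%).

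Control mouse 1 stood apart in these genes. Its mtDNA_ATP6-S probe read 128.6, near the array median of 118.7, while the other 11 arrays gave 22859.8 to 33843.4. A second probe for ATP6, recognised by the gene number in its name, read 14361.2 in control mouse 1, next to 14655.9 to 28790.4 on the other arrays. Over the whole array, 2 probes were bright on the 11 other arrays and dim in control mouse 1, and no other array had such a probe. The mtDNA_ND3-S probe read 94.9 to 145.7 and the mtDNA_ND6-S probe, for the 1 protein read from the opposite strand, 129.3 to 180.1 on the 12 arrays, and neither is interpreted further.

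Intensities were background corrected and quantile normalized, which gives all arrays the same distribution of values, and 22067 probes above a normalized intensity of 100 on at least 3 arrays were tested with limma. All 10 members passed this filter. A probe was called changed at an adjusted p under 0.05 (Benjamini-Hochberg over all tested probes). Values below are normalized intensities unless stated otherwise, and fold changes are log2 values ± SE. The plot of intensities by array shows the members in the order of the complexes.

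**Figure D2:**
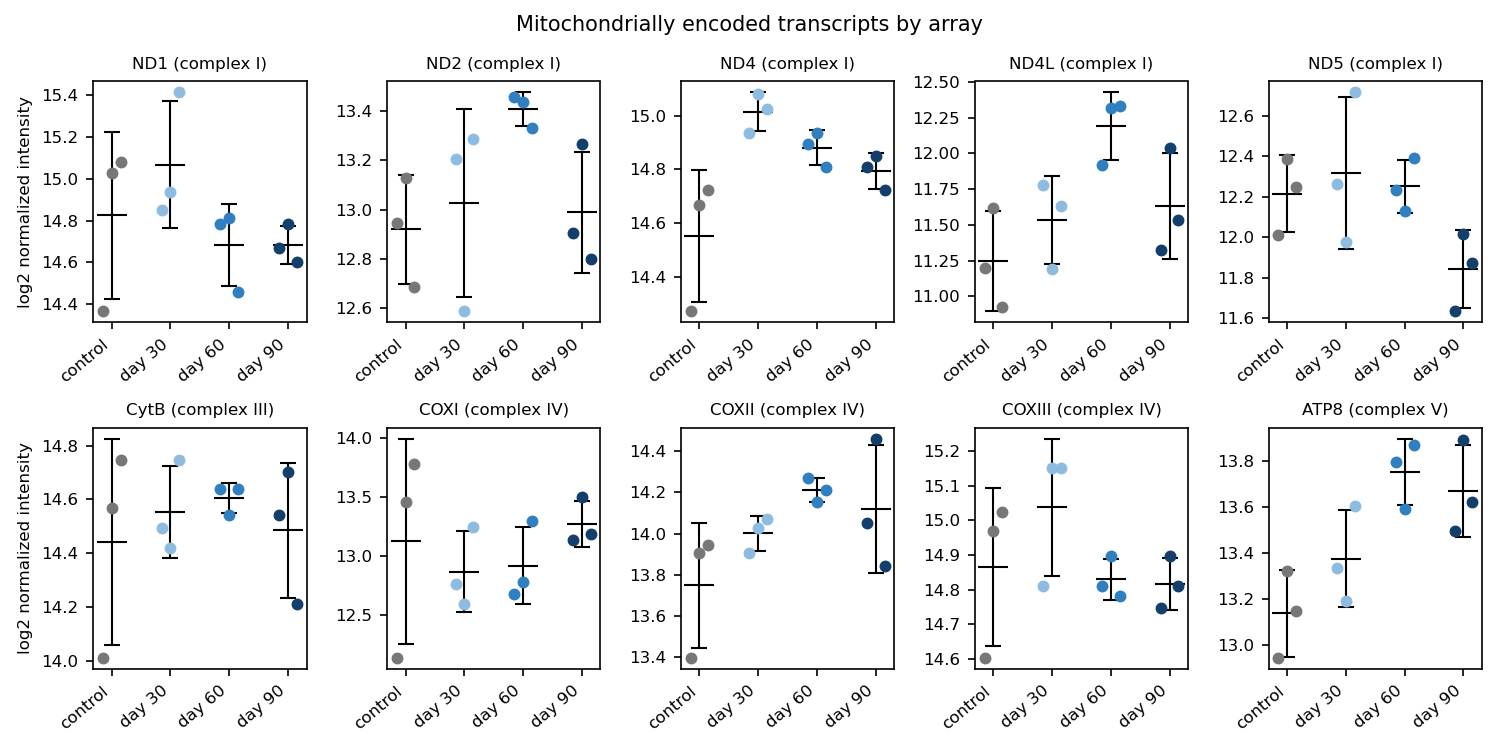
Log2 normalized intensity (quantile scale) of the 10 mitochondrially encoded transcripts in single mice (points), with the mean (line) and SD (bars, n = 3) of each group; every panel has its own vertical range. ATP8 lies higher in all day 60 and day 90 mice than in all controls, ND4L peaks at day 60, and ND5 is lowest at day 90.

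Early transgenic antra were compared with controls first. At day 30, 9 of 10 members had a positive fold change (8 with every other scaling, where CytB was negative). Their median was 0.21 against 0.02 over all tested probes, but 0 of 10 were called, where 0% of all probes were. This median depended on control mouse 1: without that array it was 0.06, against 0.02 over all probes, with 8 of 10 positive. With limma, 1 member and 887 probes had an unadjusted p under 0.05, and the methods' t-test (the kind of test the study names, run here with equal variances on the same normalized values) gave 1 member and 927 probes and called none after adjustment. The member with the smallest p was mtDNA_ND4-S, which read 31368, 34656 and 33346 at day 30 and 19782, 26005 and 27019 in controls. Its values did not overlap between the groups, and the fold change was 0.46 ± 0.15 (adjusted p = 0.999, limma). Fold changes of the other 9 were 0.29 for ND4L, 0.25 for COXII, 0.24 for ND1 and ATP8, 0.17 for COXIII, 0.11 for CytB and ND2, 0.10 for ND5 and -0.25 for COXI. All 9 overlapped between the groups, and their 95% intervals included 0, with bounds out to 0.78 for ND4L and -1.12 for COXI.

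At day 60, ATP8, COXII, ND2, ND4 and ND4L lay above all controls in all 3 mice, and no member lay below. How often all tested probes lay apart in this way is not given, so this lack of overlap is a description only. None of the 10 passed the threshold, while 0.856% of all tested probes did. Limma gave 5 members and 3198 probes with an unadjusted p under 0.05, and the methods' t-test gave 3 members, with 0 probes called after adjustment. The median fold change of the members was 0.25, against -0.01 over all probes.

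The difference was widest for mtDNA_ND4L-S, a small membrane subunit of complex I. It read 3869, 5118 and 5163 at day 60 and 2349.6, 3143 and 1940.3 in controls, a fold change of 0.94 ± 0.19 (95% interval 0.51 to 1.38, adjusted p = 0.0692). The lowest day 60 mouse was above the highest control. The call depended on the setting: the adjusted p was 0.0396 with no filter on dim probes, 0.0216 with a trended and robust estimate of the spread, and 0.0423 without control mouse 2. At day 30 the same probe read 3512, 2338 and 3178.5, which overlapped between day 30 and control (0.29 ± 0.22, adjusted p = 0.999). Against day 30, all 3 day 60 mice were higher (0.66 ± 0.18, adjusted p = 0.164).

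ATP8, a small subunit of the membrane part of ATP synthase, gave 14193, 12327 and 14942 at day 60 and 7878, 10219 and 9071 in controls. The groups did not overlap, with a fold change of 0.61 ± 0.14 (adjusted p = 0.087). For mtDNA_ND2-S, values were 11240, 11107 and 10314 at day 60 and 7898, 8945 and 6591 in controls (0.49 ± 0.14, adjusted p = 0.148). The mtDNA_COXII-S probe, for the copper-binding subunit of complex IV that takes up electrons from cytochrome c, averaged 18995 ± 767 at day 60 and 13965 ± 2751 in controls (SD, n = 3 each, 0.46 ± 0.16, adjusted p = 0.219). The mtDNA_ND4-S probe had a fold change of 0.33 ± 0.14 (adjusted p = 0.334).

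The remaining members overlapped between day 60 and control. CytB had a fold change of 0.16 ± 0.18, ND5 of 0.04 ± 0.14, COXIII of -0.04 ± 0.14, ND1 of -0.14 ± 0.20 and COXI of -0.20 ± 0.38, and with every other scaling COXIII and ND1 were positive. The mtDNA_COXI-S probe, for the catalytic subunit of complex IV, varied most among controls, at 4518, 11240 and 14014, with the low value in control mouse 1. Without control mouse 1 the median fold change of the 10 members at day 60 was 0.07 and 5 of 10 were positive, while ND4L was at 0.92 (adjusted p = 0.173).

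At day 60 against day 30, COXII, ND2 and ND4L were higher in all mice and mtDNA_ND1-S was lower in all mice. Here too the lack of overlap is a description, without a share over all tested probes. None of the 10 was called, where 0.358% of all tested probes were. Limma gave 3 members and 2895 probes with an unadjusted p under 0.05, and the methods' t-test gave 2 members, with 0 probes called after adjustment. ND1, part of the quinone-binding region of complex I, read 28174, 28725 and 22524 at day 60 and 29547, 31368 and 43595 at day 30 (-0.38 ± 0.17, adjusted p = 0.375). ND2 and ATP8 were both at 0.38, ND2 without overlap, and COXII was at 0.21. The fold changes of COXI, CytB, ND5, ND4 and COXIII lay between -0.21 and 0.05, all overlapping, and with every other scaling those of ND4 and COXIII were positive.

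Between day 90 and day 60 the same quantile scale gave 2 lower members, 0 higher ones and 8 without a call. In all, 19.8% of the tested probes were called, 9.83% as lower. mtDNA_ND2-S, a membrane subunit of complex I, read 7660.1, 9843 and 7122 at day 90 and 11240, 11107 and 10314 at day 60. Every day 90 mouse was below every day 60 mouse, and ND2 fell by 0.42 ± 0.13 (adjusted p = 0.0497). ND5, a large proton-pumping subunit of complex I, read 3178.5, 4141 and 3753 at day 90 and 4822, 4486 and 5378 at day 60, again without overlap, and fell by 0.41 ± 0.13 (adjusted p = 0.0465). Both calls were close to the threshold. ND2 kept its call without day 90 mouse 2 (adjusted p = 0.0104) and lost it without any of the other 5 arrays (0.0911 to 0.198). ND5 likewise kept it without day 90 mouse 2 (0.0346) and lost it without each of the other 5 (0.0553 to 0.183).

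ND4L had a wider difference between day 90 and day 60, but overlapped: 2558, 4213 and 2969 at day 90 and 3869, 5118 and 5163 at day 60 (-0.56 ± 0.18, adjusted p = 0.0578). The adjusted p was 0.0285 without background correction, 0.0254 with no filter, 0.0299 without day 60 mouse 1 and 0.0141 without day 90 mouse 2. COXI had a positive fold change (0.35 ± 0.17, adjusted p = 0.191) and passed the threshold without day 60 mouse 3 (0.54, adjusted p = 0.0371). The other 6 members (CytB, COXII, ND4, ATP8, COXIII and ND1) lay between -0.12 and 0.00, and all overlapped.

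Day 90 tumours were then set against controls. On the quantile scale 1 of 10 members, ATP8, was higher and none was lower, where 19.5% of all tested probes were called and 10.4% were called higher. ATP8 read 11554, 15164 and 12572 at day 90 and 7878, 10219 and 9071 in controls. All day 90 mice were above all controls, and ATP8 rose by 0.53 ± 0.15 (1.44-fold, adjusted p = 0.0387). The call was lost without control mouse 1 (adjusted p = 0.116), control mouse 3 (0.0542), day 90 mouse 2 (0.131) or day 90 mouse 3 (0.0982). With 75th percentile scaling the fold change of ATP8 was 0.25 ± 0.14 (adjusted p = 0.229).

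The other 9 members overlapped between day 90 and control. ND5 had the lowest fold change, -0.37 ± 0.15 (adjusted p = 0.121), at 3178.5, 4141 and 3753 at day 90 and 4127, 5359.9 and 4859 in controls. ND4L was at 0.39 ± 0.22, COXII at 0.37 ± 0.20 and ND4 at 0.24 ± 0.15, none of them called. COXI, ND2, CytB, COXIII and ND1 lay between -0.14 and 0.15. Scaled by the 75th percentile, 3 of 10 members were positive, in place of 7, and COXI, ND2, ND4 and CytB were negative. On the quantile scale without control mouse 1, 5 of 10 were positive. Their median was then -0.05, as over all probes, in place of 0.11. With all arrays on the quantile scale, the largest log2 change of any member in the 5 comparisons was 0.94, for ND4L at day 60 against control. No member thus reached a change of 2-fold in these fits. Without control mouse 2 the change of ND4L was 1.13, which is above 2-fold. The full rule of the study's methods adds a fold of 2 and a difference of means, so with all arrays it could call no member. Over all tested probes it called 58 to 1221 in the 5 comparisons.

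Ordered by their means, ATP8 levels ran from control over day 30 and day 90 to day 60, and each neighbouring pair in this order overlapped. For ND4L the order was control, day 30, day 90 and day 60, and again the neighbours overlapped. ND2 had the order control, day 90, day 30 and day 60, with overlap between all neighbours in this order except day 30 and day 60. ND5 was lowest at day 90, followed by control, day 60 and day 30, all neighbours overlapping.

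Over the 9 transgenic mice a straight line with age found no called member among 10, while 22.8% of all tested probes had a called slope. Limma gave 3 members (ND1, ND4 and ND5) and 7575 probes with an unadjusted p under 0.05, and the methods' t-test was not run on slopes. The steepest slope was that of ND5, which changed by -0.24 ± 0.09 for every 30 days (adjusted p = 0.0853), and that of COXI was 0.20 ± 0.10 (adjusted p = 0.182). Slopes of the other 8 lay between -0.19 for ND1 and 0.15 for ATP8. ND5 was called without day 30 mouse 2 (-0.33, adjusted p = 0.0146) and COXI without day 30 mouse 3 (0.30, adjusted p = 0.0464).

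How many members were called lower at day 90 depended on how the arrays were scaled. Quantile normalization replaces each value by that of its rank, whereas scaling by the 75th percentile keeps the ratios between the probes of an array. The 75th percentiles of the non-normalized values lay between 119.6 and 172.6, far below the members. With 75th percentile scaling, 8 of 10 members were lower at day 90 than at day 60 (all but COXI and ATP8), against 8.75% of all tested probes called lower. The members' median fold change was then -0.56, against -0.10 over all probes, so that their shift relative to all probes was -0.46. On the quantile scale the medians were -0.09 and -0.04, a relative shift of -0.05.

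COXIII, a core subunit of complex IV without metal centres, read 28900 ± 1512 at day 90 and 29130 ± 1211 at day 60 on the quantile scale (SD, n = 3 each), a fold change of -0.01 ± 0.10. With 75th percentile scaling the fold change was -0.61 ± 0.13 (adjusted p = 0.00487), and for ND1 the corresponding values were 0.00 ± 0.12 and -0.54 ± 0.12 (adjusted p = 0.0088). ND2 and ND5 were lower at day 90 on both scales, at -0.65 ± 0.14 (adjusted p = 0.00515) and -0.55 ± 0.14 (adjusted p = 0.0172) with 75th percentile scaling.

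The deposited normalized values, which above a non-normalized value of 500 were a straight line of it on each array, gave 6 of 10 members lower at day 90 than at day 60 (COXIII, CytB, ND1, ND2, ND4 and ND5), against 14.7% of probes called lower. With cyclic loess, a smoothed scaling along intensity, none was called and 9 of 10 fold changes were negative. Without any scaling ND2 and ND4 were lower.

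Against controls, the call of ATP8 was not kept at day 90 with 75th percentile scaling (0.25 ± 0.14), with the deposited values (0.31 ± 0.15, adjusted p = 0.158) or without scaling, where its fold change was 0.47 ± 0.16 (adjusted p = 0.0745). With 75th percentile scaling ND1 (-0.51 ± 0.14, adjusted p = 0.0315) and ND5 (-0.57 ± 0.16, adjusted p = 0.0344) were lower and none was higher, where 10.4% of probes were called lower. A second ND1 probe, described below, was not lower with this scaling (0.11 ± 0.15, adjusted p = 0.606). The second ND5 probe was lower (-0.49 ± 0.15, adjusted p = 0.0453). The members' median was -0.24, against -0.12 over all probes. By contrast, the day 60 median against control was positive under every scaling, at 0.25 to 0.38, with 0 members called under any of them. Over all probes the medians were -0.03 to 0.07. On the quantile scale without control mouse 1 the members' median was 0.07.

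**Figure D3:**
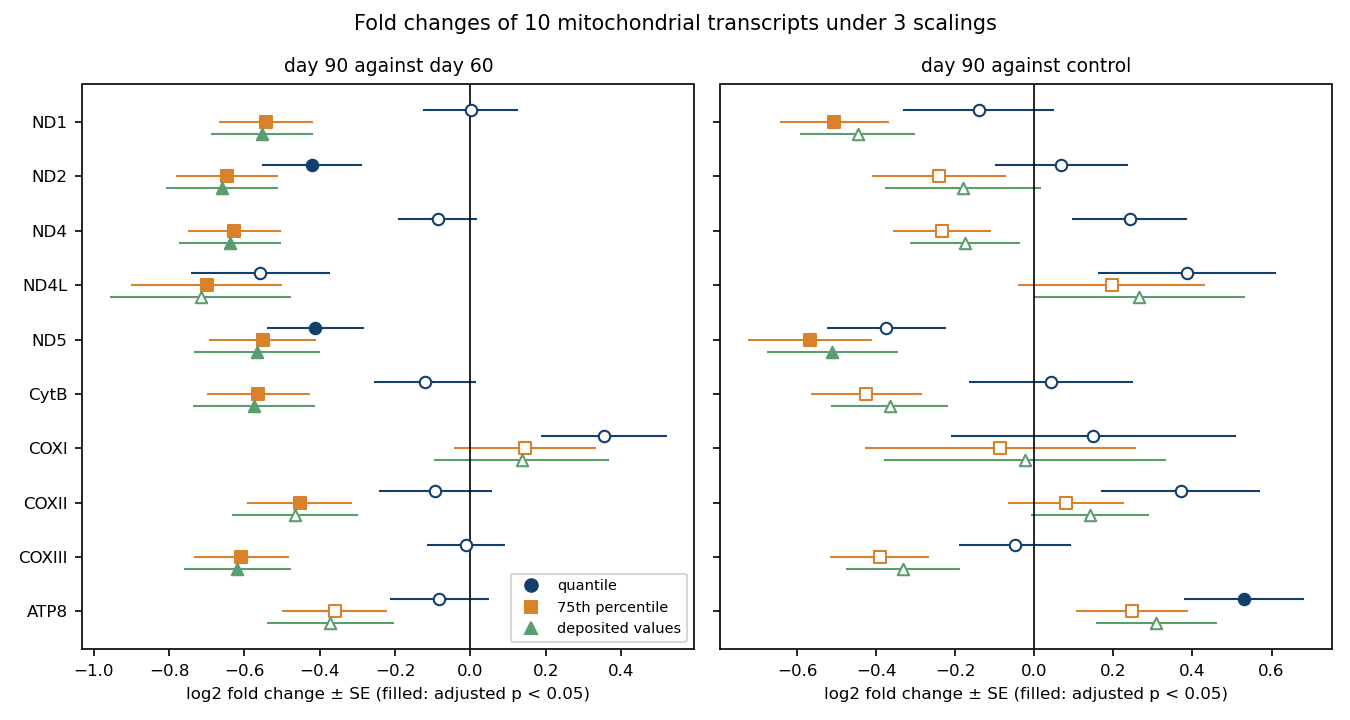
Log2 fold change (± SE) of each of the 10 members for day 90 against day 60 (left) and day 90 against control (right) with quantile scaling (circles), 75th percentile scaling (squares) and the deposited values (triangles); filled symbols have an adjusted p under 0.05. With 75th percentile scaling 8 members are called lower at day 90 than at day 60, and with quantile scaling 2.

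A comparison of members with each other on the same array does not need a scaling between arrays. For this the log2 value of each member, after background correction alone, was expressed relative to the mean of the 10 members on that array, which is given as a description without a test. ATP8 was at 0.07 ± 0.08 at day 90 and -0.37 ± 0.08 in controls (SD, n = 3 each), and at -0.06 ± 0.09 at day 60, with all day 60 and all day 90 mice above all controls. COXII was 0.27 higher at day 90 and 0.24 higher at day 60 than in controls, both without overlap. ND5 went the other way, at -1.68 ± 0.10 at day 90, -1.62 ± 0.03 at day 60 and -1.31 ± 0.03 in controls, without overlap in either comparison. ND1 was 0.31 lower at day 90 and 0.26 lower at day 60 than in controls, also without overlap. These 4 members kept the same direction and the lack of overlap on the quantile scale, with differences of 0.41, 0.25, -0.50 and -0.26 at day 90 for ATP8, COXII, ND5 and ND1. CytB (-0.23) and COXIII (-0.20) were lower than in controls without overlap at day 90 before scaling, but overlapped on the quantile scale. For CytB the same held at day 60 (-0.16 before scaling) and at day 30 (-0.17). ND4L was 0.60 higher at day 60 than in controls without overlap (0.68 on the quantile scale), and overlapped at day 90. Values relative to the members' own mean are not independent, because where some members rise others must fall.

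Another 9 probes of mitochondrially encoded genes were found by the gene number in their names, and 8 of them passed the filter. They were matched by number and not by value. The second ND5 probe gave non-normalized values of 1405.7, 1361 and 1594.5 at day 90 and 1824.4, 1789.8 and 1672 at day 60. It fell by 0.47 ± 0.13 (adjusted p = 0.0213), next to 0.41 ± 0.13 for mtDNA_ND5-S, and was the 1 of 8 called in this comparison on the quantile scale. Scaled by the 75th percentile, 6 of the 8 were lower (ATP6, COXII, CytB, ND1, ND4 and ND5), where 8.75% of all tested probes were called lower. The median over the 8 was -0.47, against -0.10 over all probes.

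For ND4L the correlation of both probes over the 12 arrays was r = 0.94, a description of arrays that share groups and scaling. The second probe read 428.7, 824.6 and 684.2 at day 60 and 324.9, 375.7 and 256 in controls. The groups did not overlap, with a fold change of 1.08 ± 0.25 (adjusted p = 0.0936). The second COXII probe was higher than control at day 60 (0.66 ± 0.11, adjusted p = 0.0419) and at day 90 (0.43 ± 0.12, adjusted p = 0.0392), where mtDNA_COXII-S was not called. The second ATP6 probe was higher at day 90 than in controls (0.60 ± 0.17, adjusted p = 0.0369) and had a called slope with age (0.25 ± 0.06 for every 30 days, adjusted p = 0.00794), as had the second CytB probe (0.15 ± 0.05, adjusted p = 0.0476). None of these 5 calls of COXII, ATP6 and CytB passed with 75th percentile scaling.

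The probes of ND1 disagreed. The second probe was higher in all day 60 mice than in all controls (0.60 ± 0.13, adjusted p = 0.087), whereas mtDNA_ND1-S gave -0.14 ± 0.20, and their correlation over the 12 arrays was r = 0.04. All day 90 mice were also above all controls for the second ND1 probe (0.42 ± 0.16, adjusted p = 0.0956), next to -0.14 ± 0.19 for mtDNA_ND1-S. For CytB the second probe had a fold change of 0.57 ± 0.20 at day 90 against control (adjusted p = 0.0834), next to 0.04 ± 0.21 for mtDNA_CytB-S. For ND4 the second probe was at 0.05 ± 0.20 and mtDNA_ND4-S at 0.24 ± 0.15 in the same comparison. The second ND2 probe read 61.1 to 97.2 on all arrays and was not tested, so the ND2 result rests on 1 probe. The probe sequences were not analysed here, and binding to the near copies of mitochondrial genes in the nuclear genome was not tested.

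**Figure D4:**
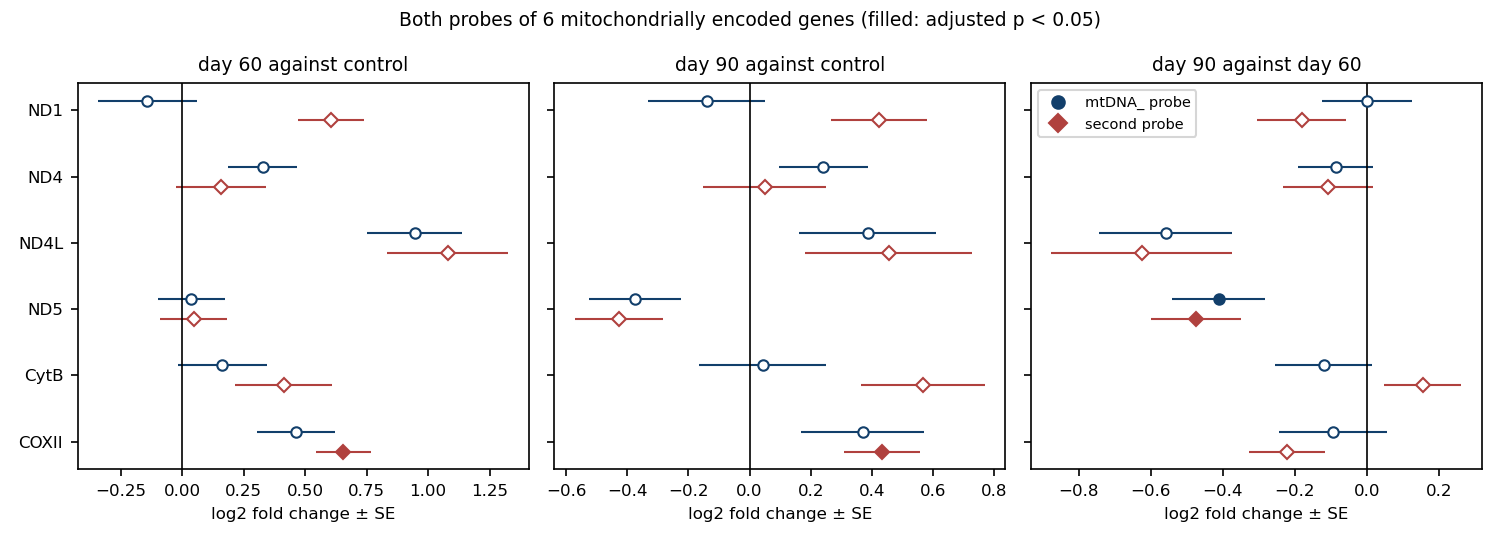
Log2 fold change (± SE, quantile scale) of the mtDNA_ probe (circles) and of the second probe (diamonds) of 6 genes in 3 comparisons; filled symbols have an adjusted p under 0.05. Both ND5 probes are lower at day 90 than at day 60, the ND4L probes are at 0.94 and 1.08 at day 60 against control, and the ND1 probes point to different sides there.

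Over the 12 arrays the 45 pairs of members had correlations between -0.19 and 0.87 with a median of 0.42, as a description of arrays that share groups and scaling. The highest were those of COXIII with ND1 (0.87), ND2 with ND4L (0.87) and ATP8 with COXII (0.83), and the lowest that of COXIII with ND2. Each member's correlation with the mean of the other 9 lay between 0.39 for COXI and 0.84 for CytB. Among 5933 named probes other than the 10 members, second probes of mitochondrially encoded genes included, those most like the mean of the members were Msl2 (r = 0.86), Setd2 (0.84), Pigz (0.83), Scgb1b27 (0.80) and the second ND1 probe (0.80), of which the first 4 were dim, between 51.8 and 335.7.

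Nuclear genes for subunits of the same complexes were examined beside the members. Of 82 listed genes, chosen like all lists here with earlier results known, 44 were measured. At day 90 against day 60, 25 of these 44 were lower and none was higher, next to 2 of 10 members, on the quantile scale, and with 75th percentile scaling 29 were lower, next to 8 of 10 members. The medians on the quantile scale were -0.41 for the nuclear genes, -0.09 for the members and -0.04 for all tested probes. Examples are Ndufa10 of complex I (-0.83 ± 0.12, adjusted p = 0.000799), Sdhb of complex II, which has no mitochondrially encoded subunit (-0.77 ± 0.10, adjusted p = 0.000495), Cyc1 of complex III (-0.70 ± 0.12, adjusted p = 0.00233), and Cox7a1, the complex IV subunit of heart and muscle (-3.00 ± 0.16, adjusted p = 2.7e-06). No test was made of the members against the nuclear genes. At day 90 against control, 18 of 44 were lower and 1, Ndufb4, was higher (0.81 ± 0.22, adjusted p = 0.0331). At day 60 and day 30 against control and at day 60 against day 30, 0 of 44 were called.

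**Figure D5:**
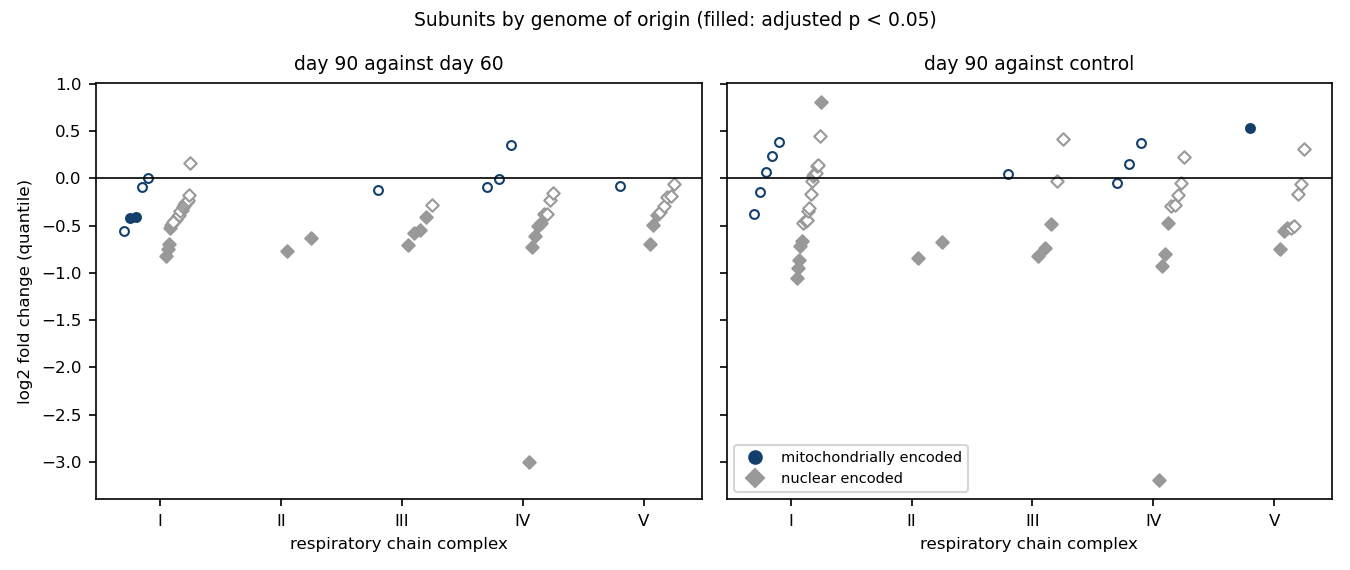
Log2 fold change (quantile scale) of single subunit genes by complex, mitochondrially encoded (circles) and nuclear encoded (diamonds), for day 90 against day 60 (left) and day 90 against control (right); filled symbols have an adjusted p under 0.05. In the left panel 1 nuclear subunit and in the right panel 10 lie above 0, while ATP8 is the 1 filled mitochondrial member against control and ND2 and ND5 are the filled ones against day 60.

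Other lists were set beside the shares over all tested probes, of which 9.83% were lower and 9.94% higher at day 90 than at day 60, and 9.17% lower and 10.4% higher than in controls. With few genes measured, counts of 1 or 2 in a list are near these shares and are given as values of single genes. Of 76 listed genes for the mitochondrial ribosome, 33 were measured and 8 were lower at day 90 than at day 60, among them Mrps24 (-0.62 ± 0.11, adjusted p = 0.00217). Of 8 measured genes for the upkeep and transcription of mitochondrial DNA, 1 was lower, Supv3l1, an RNA helicase of the mitochondrial degradosome (-0.34 ± 0.10, adjusted p = 0.0408), and against control 1 was higher, Ssbp1, the mitochondrial single-stranded DNA binding protein (0.47 ± 0.14, adjusted p = 0.0458). Among 3 measured regulators of mitochondrial biogenesis, Ppargc1b, a transcriptional coactivator, was lower at day 90 than at day 60 (-1.10 ± 0.14, adjusted p = 0.000431) and than in controls (-1.70 ± 0.15, adjusted p = 0.000135). In the citric acid cycle 4 of 8 measured genes were lower at day 90 than at day 60, among them Ogdh (-0.75 ± 0.15, adjusted p = 0.00496), and none was higher. In glycolysis 2 of 16 were higher and 2 lower, led by the neuronal enolase Eno2 (2.49 ± 0.19, adjusted p = 1.6e-05) and by Ldhb (-2.51 ± 0.16, adjusted p = 6.95e-06).

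Markers of other cell types differed between the groups, and in such bulk samples fewer cells of a type and less RNA per cell cannot be told apart. The summed normalized intensity of 6 measured parietal cell markers (of 12 listed) lay between 8103 and 9605 at day 90, 23608 and 29759 at day 60 and 16108 and 39906 in controls. Atp4a, the proton pump that defines these cells, averaged 620.3 ± 181 at day 90 and 10864 ± 6651 in controls. The summed intensity of 6 smooth muscle markers (of 13) was 2099 to 2838 at day 90, 3825 to 7141 at day 60 and 6423 to 7664 in controls. The 6 neuroendocrine markers measured (of 14) summed to 18011 to 23895 at day 90, 2347 to 4767 at day 60 and 959.5 to 1117 in controls. Squamous epithelium markers (4 of 13) summed to 373.5 to 6144 at day 90 and 1305 to 9302 at day 60. Their sums were 464.4 to 5190 at day 30 and 9624 to 14310 in controls. Pancreatic acinar markers (3 of 8) summed to 261.1, 3773 and 11010 at day 90, 321.3, 300.0 and 10383 at day 60 and 19296, 409.4 and 233.9 in controls (mouse 1, 2 and 3). The high control value was that of control mouse 1, the array with the lowest mitochondrial share, the lowest COXI value and the dim mtDNA_ATP6-S probe. Day 60 mouse 3 and day 90 mouse 3, also high in acinar markers, had mitochondrial shares of 1.62% and 1.09%. The part of these cell types in the values of the mitochondrial transcripts was not tested.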

How the data were processed

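RNA of antral tissue from 12 mice was measured on Illumina Sentrix Mouse-6 arrays (1 array per mouse, 3 mice per group). The authors collected bead intensities with BeadStudio and deposited a table of non-normalized intensities, used here, and a table of normalized intensities, used as an alternative. The method behind the normalized table is not named in it; above a non-normalized value of 500 it was a straight line of the other table on each array, with slopes of 0.720 to 1.143. Here, intensities were background corrected (normexp, offset 50), quantile normalized and put on the log2 scale in limma 3.58.1 (R 4.3.3). Probes above 100 on at least 3 arrays were tested (22067 of 46116). Each comparison was fitted on its own 6 arrays (lmFit, eBayes), two-sided, with Benjamini-Hochberg adjustment over all tested probes and a threshold of 0.05; intervals are 95% intervals. The trend used age over the 9 transgenic arrays. p-values measure the spread between these mice only, and chip or scan batches are not given in the sources used here. The number of arrays limits the precision. The scripts were tested on simulated data.

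Probes other than those named mtDNA_ were named where the number in their ID matched an NCBI gene number of the RefSeq table for GRCm38.p6 (9832 probes, 8127 genes). Of 90 that the study's tables also name, 89 had the same gene. A gene with several probes was represented by the brightest on average. The members, gene lists and tests were chosen with earlier results of these data known. All 10 members are named in each comparison; from each list at most 4 called genes with the largest change are named, and the 5 named probes outside the members with the highest correlation to their mean.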

Additional observations from a re-analysis of the deposited data

Results flagged for a closer look

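ND2 and ND5 were flagged because every day 90 mouse was below every day 60 mouse and the difference between these times was called. Of all tested probes 19.8% were called in this comparison, 9.83% as lower. The 2 called members of 10 are thus near the share of all calls. The fold change of mtDNA_ND2-S at day 90 against day 60 was -0.42 (adjusted p = 0.0497, limma), and over all its alternatives and left-out arrays the adjusted p lay between 0.00515 and 0.198. That of mtDNA_ND5-S was -0.41 (adjusted p = 0.0465), with a range of 0.0172 to 0.183. Against control, ND2 was at 0.49 at day 60 and ND5 at 0.04, neither of them called.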

How the results depend on the processing

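Of 1090 fold changes of single members under the alternatives, 950 kept their direction and their side of the threshold, 27 gained a call, 31 lost one and 82 changed sign. No member that changed sign was called on the quantile scale, and 2 of the 82 values were called, both of ND1 at day 90 against day 60. At day 90 against day 60, where 2 members were called, 75th percentile scaling called 8 and the deposited values 6. No filter and the replicate block called 1 each (ND4L), and normexp with an offset of 16, cyclic loess, all groups in 1 fit and the methods' t-test called 0. Leaving out 1 array gave 0 to 3. At day 90 against control, with 1 called, 75th percentile scaling called 2, no scaling and the methods' t-test 0, the deposited values 1 (ND5, lower, in place of ATP8), and leaving out 1 array 0 to 1. At day 60 against control, with 0 called, no filter and a trended and robust spread called 1 (ND4L), and leaving out 1 array 0 to 1. The slope with age had 0 calls, 4 with 75th percentile scaling and 0 to 1 with 1 array left out. At day 30 against control and day 60 against day 30 no alternative called a member. The causes were not tested. Over all probes, the count at day 60 against control was 189, and 0 (the methods' t-test), 42 (replicate block), 67 (no scaling), 313 (no filter), 322 (all groups in 1 fit), 380 (deposited values) and 426 (trended and robust) otherwise; at day 60 against day 30 it was 79 and otherwise 0 to 229. Leaving out 1 array gave 3 to 278 at day 60, 0 to 83 at day 30 and 2417 to 4720 at day 90 against control. By the methods' t-test, 1644 probes were called at day 90 against control and 1506 against day 60, by limma 4314 and 4363. Mouse numbers were not used to pair the samples in the main fits. Of 18 same-numbered pairs 4 had correlated deviations above 0.1 (r = -0.43 to 0.36). Pairs with other numbers had r = -0.45 to 0.52. With 3 arrays per group this cannot exclude that mice of the same number shared a batch.

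Of the 82 sign changes, 45 came from the scaling: values on the quantile scale, in brackets after the gene, changed sign as follows. For day 30 against control, CytB (0.11) was at -0.050 (75th percentile), -0.066 (loess), -0.12 (no scaling) and -0.072 (deposited values). For day 60 against control, COXIII (-0.04) was at 0.22 (75th percentile), 0.23 (loess), 0.22 (no scaling) and 0.29 (deposited values), ND1 (-0.14) was at 0.037 (75th percentile), 0.051 (loess), 0.042 (no scaling) and 0.11 (deposited values) and ND5 (0.04) was at -0.015 (75th percentile) and -0.011 (no scaling). For day 60 against day 30, COXIII (-0.21) was at 0.072 (75th percentile), 0.098 (loess), 0.14 (no scaling) and 0.16 (deposited values) and ND4 (-0.13) was at 0.10 (75th percentile), 0.13 (loess), 0.17 (no scaling) and 0.19 (deposited values). For day 90 against day 60, ND1 (0.00) was at -0.54 (75th percentile), -0.14 (loess), -0.33 (no scaling) and -0.55 (deposited values). For day 90 against control, COXI (0.15) was at -0.086 (75th percentile) and -0.024 (deposited values), CytB (0.04) was at -0.42 (75th percentile), -0.026 (loess), -0.20 (no scaling) and -0.37 (deposited values), ND2 (0.07) was at -0.24 (75th percentile), -0.020 (no scaling) and -0.18 (deposited values), ND4 (0.24) was at -0.23 (75th percentile), -0.013 (no scaling) and -0.17 (deposited values) and COXIII (-0.05) was at 0.028 (loess). For the slope with age, COXII (0.06) was at -0.080 (75th percentile) and -0.039 (deposited values), ND4L (0.05) was at -0.052 (75th percentile) and -0.0092 (deposited values), CytB (-0.03) was at 0.020 (loess) and ND2 (-0.02) was at 0.011 (loess). The other 37 came from leaving out 1 array, which gave these ranges: for day 30 against control -0.10 to 0.26 for CytB, -0.75 to 0.071 for COXI, -0.023 to 0.33 for ND2 and -0.097 to 0.27 for ND5. For day 60 against control -0.052 to 0.32 for CytB, -0.064 to 0.12 for ND5, -0.17 to 0.043 for COXIII and -0.70 to 0.12 for COXI. For day 60 against day 30 -0.14 to 0.24 for COXI, -0.013 to 0.15 for CytB and -0.24 to 0.13 for ND5. For day 90 against day 60 -0.051 to 0.024 for COXIII, -0.11 to 0.063 for ND1, -0.19 to 0.0033 for ATP8, -0.26 to 0.044 for COXII and -0.23 to 0.017 for CytB. For day 90 against control -0.34 to 0.47 for COXI, -0.17 to 0.20 for CytB, -0.18 to 0.031 for COXIII and -0.069 to 0.17 for ND2. For the slope with age -0.077 to 0.17 for ND4L, -0.077 to 0.036 for CytB, -0.15 to 0.056 for ND2 and -0.0078 to 0.13 for COXII.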
